A study of Rattus norvegicus with 49 samples.

Results

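The genes for the oxidative phosphorylation machinery were followed in 49 rat livers, each from a separate animal and hybridised to its own Affymetrix rat expression array. A gene was taken when its annotated symbol began with Nduf, Uqcr, Cox4 to Cox8 or Atp5, or was Sdha, Sdhb, Sdhc or Sdhd, and each gene was represented by its brightest probe set among those that carry a single symbol. This gave 86 of the 14217 genes on the array. They comprised 42 genes assigned to complex I, 4 to complex II, 7 to complex III, 17 to complex IV and 16 to complex V, of which 77 code for subunits. The other 9 are 6 complex I assembly factors (the Ndufaf genes), the supercomplex assembly factor Cox7a2l, the ATP synthase inhibitor Atp5if1 and the pseudogene Cox6c-ps1. Complexes were assigned by symbol, so Ndufa4, now known as a cytochrome c oxidase subunit, was counted under complex I.

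All animals were male Sprague-Dawley rats, 8 to 10 weeks old at the start, and livers were taken after 4 or 14 days of feeding. Powdered feed was cut by 15% for group 3, by 30% for group 4 and by 60% for group 5, and these rats were fasted overnight before necropsy. Group 2 ate ad libitum and was fasted overnight, and group 1 ate ad libitum and was not fasted. The design text of the deposited series states an overnight fast for every animal, whereas the sample labels and the study's methods leave group 1 unfasted, and these were followed here. Each group held 5 rats on each day, except group 1 on day 14, which held 4. The rats were housed in pairs or groups and the labels do not give the cage. Values are log2 of the deposited normalised intensities, and a difference of 1 on this scale is a doubling of signal. Signals of different probe sets are not comparable as amounts, so each gene is compared only with itself.

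The respiratory chain moves electrons from NADH (complex I, NADH dehydrogenase) and succinate (complex II, succinate dehydrogenase) through ubiquinone, complex III and cytochrome c to oxygen at complex IV, and pumps protons across the inner mitochondrial membrane. Complex V, the ATP synthase, lets the protons return and makes ATP. In the liver this machinery oxidises the fatty acids that reach it during fasting and supplies the ATP for glucose and urea synthesis. The subunits encoded by mitochondrial DNA were not analysed here, so all members are nuclear genes.

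Hepatocyte markers were bright in every group, and the linear intensities of the 8 measured of 9 listed summed to a range of 136070 to 144520 in group 5 on day 14, against 138260 to 144850 in group 2. All 7 skeletal muscle markers lay below the 25th percentile of gene signals (log2 5.68). Array medians ran from log2 6.34 to 6.43, and arrays of the same group correlated at 0.989 to 0.995 over all genes. Of the members, 81 lay above the 25th percentile. The 5 below it were all complex IV isoforms known from other tissues, namely Cox4i2 (lung), Cox6a2 and Cox8b (heart and skeletal muscle), Cox6b2 and Cox7b2 (testis), while their liver partners Cox4i1, Cox6a1, Cox8a, Cox6b1 and Cox7b were bright. None of these 5 dim isoforms was called in any comparison. A gene was called where limma's moderated test of the pair of groups gave a Benjamini-Hochberg adjusted p under 0.1 over all 14217 genes. Since these are whole-liver RNAs, fewer cells of a type and less RNA per cell cannot be told apart.

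The members differed by little in log2 signal between diets, and they also varied little among rats of a group. Among rats of the same group the SD of a member was 0.08 (median over 86 genes), compared with 0.14 for all genes and 0.11 for the 1961 genes with a mean log2 intensity of 10 or more. Over the 10 group means the median member spanned 0.26, against 0.30 for the median of all genes and 0.39 for that of the 1961 bright genes. Among the members the least was Cox4i2 with 0.10 and the widest was Ndufaf4, a complex I assembly factor, with 1.10. In the 6 comparisons with group 2 no member moved by more than 0.39, and between 84 and 86 of the 86 members had a 95% interval of the difference lying wholly within 0.5 of 0. The same was true of 79.0 to 91.4% of all genes. These intervals are narrower where rats of a group vary less, as they did for the members.

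**Figure D1:**
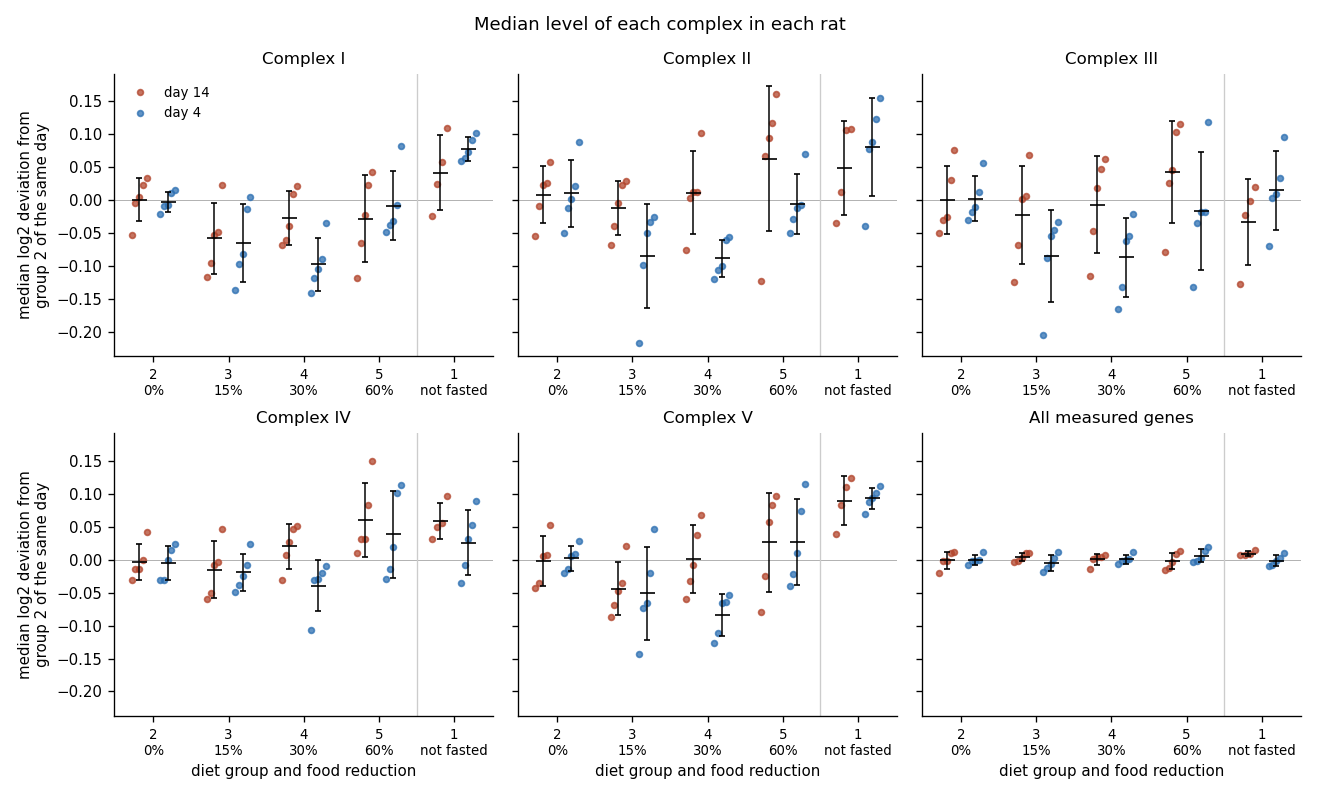
Median log2 deviation of the members of each complex, and of all genes, from the group 2 mean of the same day, for each rat; x axis, diet group with its food reduction, group 1 (not fasted) at the right. Points are rats and black bars the mean ± SD of 5 rats (4 in group 1 on day 14). On day 4 the group 4 medians of complex I lie between -0.14 and -0.03, against -0.02 to 0.01 in group 2.

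Whole complexes moved by small steps. On day 4 the median over the complex I genes, set against the group 2 mean, was -0.10, -0.03, -0.14, -0.12 and -0.09 in the 5 group 4 rats, against 0.01, -0.01, -0.01, -0.02 and 0.01 in group 2. Every group 4 rat lay below every group 2 rat. For complex V the group 4 rats read -0.05, -0.06, -0.06, -0.11 and -0.13, against 0.01, -0.02, 0.01, -0.01 and 0.03 in group 2, again without overlap. For complex IV they read -0.01, -0.03, -0.02, -0.11 and -0.03, against 0.02, 0.00, -0.03, -0.03 and 0.02, and the groups overlapped. Complex II, with 4 genes, ran from -0.12 to -0.06 in group 4 and from -0.05 to 0.09 in group 2, without overlap. For complex III the groups overlapped, at -0.17 to -0.02 against -0.03 to 0.06. On day 14 complex I averaged -0.03 ± 0.04 in group 4 and 0.00 ± 0.03 in group 2 (SD, n = 5 each), with overlapping rats. For complex II group 5 rats spread widely on day 14, from -0.12 to 0.16, against -0.05 to 0.06 in group 2. On day 4 they did not, at -0.05 to 0.07 against -0.05 to 0.09.

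NRF1, YY1, GABPA (an ETS factor) and the ERR receptors are transcription factors known to control respiratory genes, so the promoters of the members were read for their motifs. RefSeq windows of 300 bases (250 before to 50 after the annotated start, build GRCr8) were found for 78 of the 86 members, the others being Atp5pd, Cox4i2, Cox6a1, Cox6c, Cox6c-ps1, Ndufa8, Ndufb9 and Uqcr11. Exact matches were sought on both strands. The NRF1 core CGCATGCG stood in 8 of 78 windows (10.3%), against 2.24% of 19005 protein-coding genes and 1.66% of all 33469 windows. The YY1 motif AAGATGGCG stood in 11 (14.1%), against 2.29% and 1.73%, and the ETS or GABPA motif CCGGAAGT in 8 (10.3%), against 4.99% and 3.81%. The ERR motif TCAAGGTCA was in 2 (2.56%, against 0.353% and 0.433%) and the CRE TGACGTCA in 3 (3.85%, against 2.22% and 1.83%). The GC box GGGCGG was in 43.6%, against 43.1% and 33.1%, and the E-box CACGTG in 7.69%, against 7.27% and 6.42%. In 10 of the 78 member windows the YY1 motif ran in the direction of the gene and began at or after position -1 (position 1 being the annotated start), against 1.23% of the protein-coding windows. The cut was not planned and coincides with the Uqcrc1 match at -1, so the contrast of these shares is not independent of the members. These counts are descriptions without a test. The windows printed here belong to genes called in at least 1 comparison and show matches to the NRF1, YY1 and ETS motifs in their setting. Only those are in capitals, and GC box and E-box matches stay in lower case. Ndufaf4 holds an NRF1 core beginning at -157 and Ndufa11 a pair of overlapping NRF1 cores at -96 and -90, Ndufaf8 holds the YY1 motif at 3, Uqcrq the ETS motif at -22, and Uqcrc1 both an NRF1 core at -38 and the YY1 motif at -1. Ndufaf4 is chr5:43401545-43401844, plus strand, Ndufa11 chr9:1637364-1637663, plus strand, Ndufaf8 chr10:105879658-105879957, plus strand, Uqcrq chr10:38089929-38090228, minus strand and Uqcrc1 chr8:118467973-118468272, plus strand. The Uqcrq window lies inside the outer bounds of the annotated gene, and the table does not name the transcript whose start it uses.
Ndufaf4: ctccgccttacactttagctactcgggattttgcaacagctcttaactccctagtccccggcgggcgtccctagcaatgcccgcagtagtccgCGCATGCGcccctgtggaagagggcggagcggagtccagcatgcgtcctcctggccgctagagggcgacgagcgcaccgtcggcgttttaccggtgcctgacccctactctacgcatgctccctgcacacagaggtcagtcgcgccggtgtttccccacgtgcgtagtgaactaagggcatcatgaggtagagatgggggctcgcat
Ndufa11: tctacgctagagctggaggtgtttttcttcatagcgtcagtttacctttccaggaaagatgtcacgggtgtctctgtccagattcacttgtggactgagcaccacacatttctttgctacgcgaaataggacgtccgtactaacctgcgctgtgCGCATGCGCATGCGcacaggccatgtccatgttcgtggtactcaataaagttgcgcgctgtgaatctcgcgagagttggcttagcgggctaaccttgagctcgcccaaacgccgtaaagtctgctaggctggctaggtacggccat
Ndufaf8: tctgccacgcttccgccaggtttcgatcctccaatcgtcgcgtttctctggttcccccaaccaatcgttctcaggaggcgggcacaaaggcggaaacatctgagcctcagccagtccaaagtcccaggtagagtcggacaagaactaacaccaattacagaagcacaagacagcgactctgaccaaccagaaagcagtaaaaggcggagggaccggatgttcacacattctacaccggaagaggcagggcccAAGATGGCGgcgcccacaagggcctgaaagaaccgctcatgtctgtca
Uqcrq: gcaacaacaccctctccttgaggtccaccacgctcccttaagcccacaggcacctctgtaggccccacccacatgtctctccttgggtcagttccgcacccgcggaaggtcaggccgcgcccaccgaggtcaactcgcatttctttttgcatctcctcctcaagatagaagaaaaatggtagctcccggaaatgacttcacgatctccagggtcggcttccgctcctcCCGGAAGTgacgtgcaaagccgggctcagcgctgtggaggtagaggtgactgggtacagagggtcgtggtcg
Uqcrc1: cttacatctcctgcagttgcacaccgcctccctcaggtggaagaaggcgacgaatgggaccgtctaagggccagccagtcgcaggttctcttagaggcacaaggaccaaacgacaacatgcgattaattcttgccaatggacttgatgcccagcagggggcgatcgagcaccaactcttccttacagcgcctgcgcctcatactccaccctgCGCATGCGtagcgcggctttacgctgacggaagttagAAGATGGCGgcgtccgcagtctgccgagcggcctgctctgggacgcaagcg

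With 15% less food for 4 days, no member was called in group 3. The background was also low, with 0.113% of all genes called higher and 0.141% lower. The median member difference was -0.04, the extremes were -0.18 and 0.10, and 12 of 86 members had an unadjusted p under 0.05, against 1488 of the 14217 genes (limma). The fit of all 10 groups also called 0 members. On day 14 group 3 was lower for 2 members, Ndufa5 and Ndufaf8, and higher for none, where 3.14% of all genes were called lower and 3.4% higher. The count of 2 fell to 0 without group 3 replicate 1, 2 or 4 or without group 2 replicate 1 or 5, and lay between 0 and 3 over the 10 fits that each left out 1 rat.

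With 30% less food for 4 days, 10 members were called lower in group 4 and none higher. This was 11.6% of the members, where 2.38% of all genes were called lower and 3.05% higher. Of the genes with a mean log2 intensity of 10 or more, 6.83% were called lower. The 10 comprised Ndufa5, Ndufab1, Ndufs3, Ndufb10 and Ndufb7 of complex I, Uqcrc2 of complex III, and Atp5mc3, Atp5f1c, Atp5pb and Atp5pf of complex V. No complex II or IV member was called. A probe set shared by LOC100361008 and Cox5a, left out of the members, differed by -0.28 ± 0.06 (SE, limma over all probe sets, adjusted p = 0.0323). Over all members 63 of 86 differences were below 0 and the median was -0.08, against 0.00 for all genes. By complex the medians were -0.12 for I, -0.09 for II, -0.13 for III, -0.06 for IV and -0.10 for V. Leaving out 1 rat at a time gave 3 to 8 called members, with 3 without group 2 replicate 5 or group 4 replicate 4 and 8 without group 4 replicate 1, and a single fit of all 10 groups called 22. On day 14 group 4 was lower for 4 members (Ndufc1, Ndufaf8, Ndufaf1 and Ndufa5) and higher for 2 (Ndufa1 and Ndufa12), where 6.24% of all genes were called lower and 6.52% higher. That total of 6 lay between 2 and 7 over the fits without 1 rat, the lowest without group 4 replicate 1, and reached 18 in the fit of all groups.

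With 60% less food for 4 days, group 5 was lower for 3 members, Ndufa5, Ndufb10 and Ndufab1, and higher for Atp5f1e. Among all genes 3.58% were called lower and 3.56% higher. On day 14 the diet touched far more of the transcriptome, with 10.9% of all genes called lower and 8.88% higher. Of the members, 3 were called lower (Ndufaf8, Ndufc1 and Ndufb10) and 3 higher (Cox7c, Ndufv2 and Ndufa1), 3.49% in each direction. Of all genes 7.13% differed by over 0.5 in this comparison, and 12.9% of those with a mean of 10 or more, against 0 of 86 members. The median member difference was 0.03. The 4 members called on day 4 fell to 1 without group 5 replicate 1 or 3 or group 2 replicate 4 or 5, and the 6 of day 14 to 3 without group 5 replicate 1, 2 or 5 or group 2 replicate 1, 2 or 5. The fit of all groups called 11 on day 4 and 18 on day 14.

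**Figure D2:**
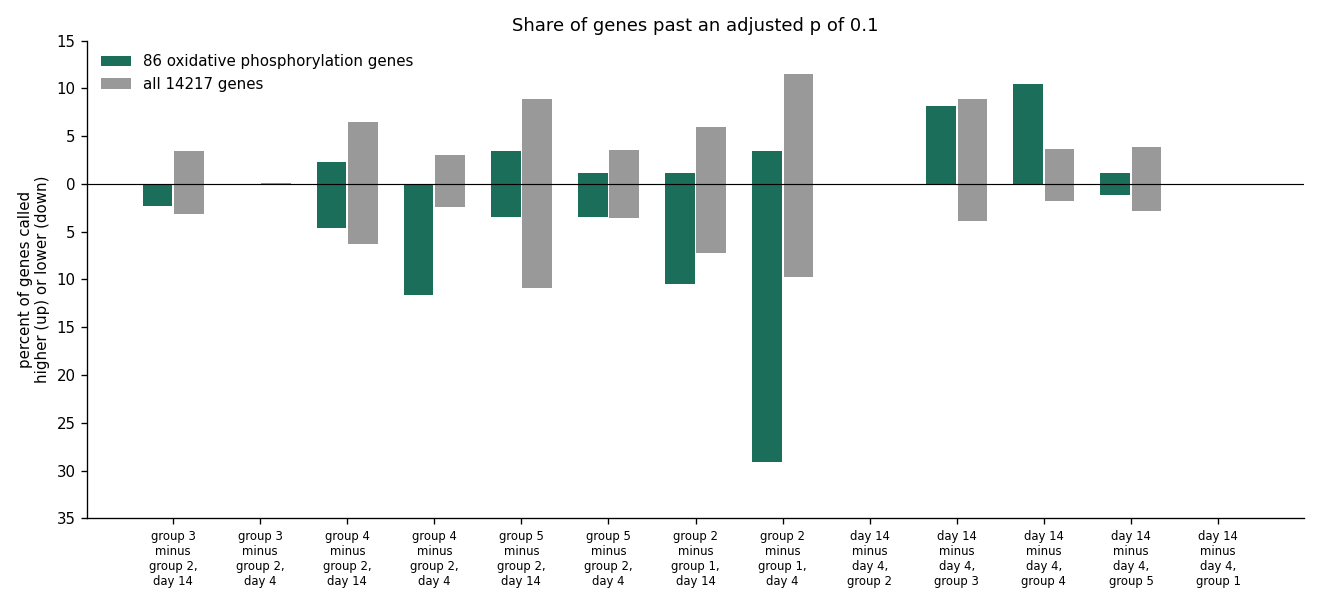
Percent of genes called higher (bars up) or lower (bars down) at an adjusted p under 0.1, for the 86 members (green) and for all 14217 genes (grey), by comparison along the x axis. The largest member bar is the 29.1% lower in group 2 against group 1 on day 4, and group 4 against group 2 on day 4 reaches 11.6% lower.

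Ndufa5, an accessory subunit of the peripheral arm of complex I, was called lower in 4 of the 6 comparisons with group 2. On day 4 its log2 intensity was 9.21, 9.03, 8.92, 8.98 and 9.22 in group 4, against 9.27, 9.38, 9.46, 9.56 and 9.42 in group 2, without overlap. Group 5 rats read 9.10, 9.01, 9.10, 9.39 and 9.16, and the rat at 9.39 lay among the group 2 values. The differences were -0.35 ± 0.08 (SE, adjusted p = 0.0375) for group 4 and -0.26 ± 0.08 (SE, adjusted p = 0.0949) for group 5. Group 3 rats read 9.18, 9.34, 9.15, 9.42 and 9.14 on day 4, and that difference of -0.17 (95% interval -0.34 to -0.01) was not called. On day 14 the values were 9.12, 9.21, 9.42, 9.14 and 9.08 in group 3 and 9.23, 9.18, 9.18, 9.26 and 9.37 in group 4, against 9.60, 9.49, 9.36, 9.39 and 9.47 in group 2. Both were called lower, differing by -0.27 ± 0.08 (SE, adjusted p = 0.0775) in group 3 and -0.22 ± 0.07 (SE, adjusted p = 0.0640) in group 4, with 1 rat of each overlapping the group 2 range. Group 5 differed by -0.07 (95% interval -0.26 to 0.12) on day 14 and was not called. The lower calls in groups 3, 4 and 5 share the same group 2 rats within each day, so they are not separate evidence. Of the 10 fits without 1 rat, the call was kept in 10 for group 4 on day 4, in 2 for group 5 on day 4 and in 3 each for groups 3 and 4 on day 14.

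Ndufb10, an accessory subunit of the membrane arm of complex I, was lower in group 5 on both days. Its values were 11.18, 11.16, 11.21, 11.25 and 11.11 in group 5 on day 4, against 11.42, 11.33, 11.40, 11.47 and 11.40 in group 2, and 11.31, 11.27, 11.23, 11.37 and 11.14 in group 5 on day 14, against 11.45, 11.37, 11.52, 11.56 and 11.47 in group 2. The groups did not overlap on either day, although the highest group 5 rat and the lowest group 2 rat of day 14 both round to 11.37. The differences were -0.22 ± 0.05 (SE, adjusted p = 0.0340) and -0.21 ± 0.07 (SE, adjusted p = 0.0526), drawn from separate rats. In group 4 Ndufb10 differed by -0.22 ± 0.06 (SE, adjusted p = 0.0993) on day 4, where 1 of the 10 fits that left out a rat kept the call, and by -0.17 (95% interval -0.30 to -0.03) on day 14.

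Ndufab1, the mitochondrial acyl carrier protein that is also a complex I subunit, read 12.26, 12.10, 12.09, 12.10 and 12.10 in group 4 on day 4 and 12.14, 12.27, 12.12, 12.27 and 12.21 in group 5, against 12.39, 12.40, 12.38, 12.40 and 12.42 in group 2. The group 2 rats were nearly identical and lay above all rats of both restricted groups. The differences were -0.27 ± 0.05 (SE, adjusted p = 0.0195) and -0.19 ± 0.05 (SE, adjusted p = 0.0548). On day 14 the differences were -0.13 (95% interval -0.26 to 0.01) in group 4 and -0.03 (95% interval -0.17 to 0.11) in group 5, and neither was called.

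Ndufs3, a core subunit of the peripheral arm, read 11.12, 11.06, 10.88, 10.98 and 11.09 in group 4 on day 4, against 11.21, 11.27, 11.24, 11.26 and 11.28 in group 2, a difference of -0.23 ± 0.06 (SE, adjusted p = 0.0643) without overlap. Ndufb7, a membrane arm subunit, was lower, differing by -0.21 ± 0.06 (SE, adjusted p = 0.0664). In complex III, Uqcrc2 (a core protein) read 11.74, 11.59, 11.65, 11.61 and 11.61, against 11.84, 11.87, 11.83, 11.81 and 11.91 in group 2, and was lower, differing by -0.21 ± 0.05 (SE, adjusted p = 0.0538). Its core partner Uqcrc1 differed by -0.21 (95% interval -0.36 to -0.07) and was not called. In complex V, Atp5mc3, which codes for the c subunit of the rotor ring, read 13.48, 13.32, 13.44, 13.35 and 13.40 in group 4, against 13.59, 13.59, 13.64, 13.65 and 13.65 in group 2. It was lower, differing by -0.22 ± 0.05 (SE, adjusted p = 0.0409), a call kept in all 10 fits without 1 rat. The stalk genes Atp5pb and Atp5pf and the rotor shaft gene Atp5f1c were lower, differing by -0.19, -0.17 and -0.21. The calls of Atp5pf and Atp5f1c lay at adjusted p = 0.0993 and 0.0991, and of the 10 fits without 1 rat they were kept in 0 and 1. The groups overlapped for Atp5f1c and not for Atp5pf.

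Other complex I genes were called on day 14. Ndufc1, a small membrane arm subunit of complex I, read 12.12, 12.05, 12.00, 12.16 and 12.03 in group 4 and 12.05, 12.06, 12.18, 12.13 and 11.97 in group 5, against 12.29, 12.26, 12.54, 12.41 and 12.34 in group 2. Every rat of groups 4 and 5 lay below every group 2 rat. The differences were -0.29 ± 0.07 (SE, adjusted p = 0.0218) and -0.29 ± 0.07 (SE, adjusted p = 0.0212), and each was called in all 10 fits without 1 rat. On day 4 they were -0.20 (95% interval -0.37 to -0.04) and -0.20 (95% interval -0.34 to -0.06), not called.

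Ndufaf8, an assembly factor known in human cells to stabilise NDUFAF5 and one of the genes with a YY1 motif just past its start, was lower in all 3 restricted groups on day 14. It read 8.75, 8.65, 8.75, 8.60 and 8.83 in group 3, 8.61, 8.59, 8.57, 8.84 and 8.81 in group 4 and 8.68, 8.70, 8.69, 8.80 and 8.21 in group 5, against 8.95, 8.80, 9.06, 9.02 and 8.98 in group 2. The differences were -0.24 ± 0.07 (SE, adjusted p = 0.0680), -0.28 ± 0.08 (SE, adjusted p = 0.0444) and -0.35 ± 0.10 (SE, adjusted p = 0.0446) in that order of groups, and 1 rat of group 3 and some rats of group 4 lay within the group 2 range, while group 5 lay below it. The group 5 rat at 8.21 stood far below its group, and without it the difference was -0.25 and still called. On day 4 the group 5 difference was -0.08 (95% interval -0.23 to 0.08). Group 2 itself read 8.73, 8.68, 8.73, 8.83 and 8.85 on day 4, so the group 2 rats of day 14 lay higher by 0.20, a difference that was not called. Ndufaf1, another assembly factor, was lower in group 4, differing by -0.27 ± 0.08 (SE, adjusted p = 0.0543), with 7.48, 7.50, 7.58, 7.51 and 7.52 in group 4, against 7.88, 7.67, 8.02, 7.60 and 7.77 in group 2 and no overlap.

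Higher calls on day 14 fell on other small or core subunits. Ndufa1, a membrane arm subunit of complex I, read 12.56, 12.51, 12.59, 12.61 and 12.63 in group 4 and 12.45, 12.47, 12.48, 12.52 and 12.56 in group 5, against 12.30, 12.35, 12.37, 12.35 and 12.34 in group 2, with no overlap. It was higher by 0.24 ± 0.05 (SE, adjusted p = 0.0160) in group 4 and by 0.16 ± 0.06 (SE, adjusted p = 0.0881) in group 5. Ndufa12 was higher in group 4 by 0.20 ± 0.06 (SE, adjusted p = 0.0739). Ndufv2, which carries an iron-sulphur cluster of the NADH-oxidising module, was higher in group 5 by 0.17 ± 0.06 (SE, adjusted p = 0.0961), with 12.31, 12.21, 12.26, 12.24 and 12.42 in group 5, against 12.19, 12.09, 12.12, 12.11 and 12.07 in group 2, without overlap. Cox7c of complex IV was higher in group 5 by 0.17 ± 0.06 (SE, adjusted p = 0.0881), with overlapping rats. In group 5 the calls of Ndufv2, Ndufa1 and Cox7c were kept in 0, 1 and 2 of the 10 fits without 1 rat, while that of Ndufa1 in group 4 was kept in all 10. On day 4 Atp5f1e, the epsilon subunit of the ATP synthase, read 12.19, 12.19, 12.21, 12.26 and 12.12 in group 5, against 12.07, 12.00, 12.04, 12.00 and 11.97 in group 2, and was higher by 0.18 ± 0.05 (SE, adjusted p = 0.0678), without overlap. This call was kept in 2 of the 10 fits without 1 rat.

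**Figure D3:**
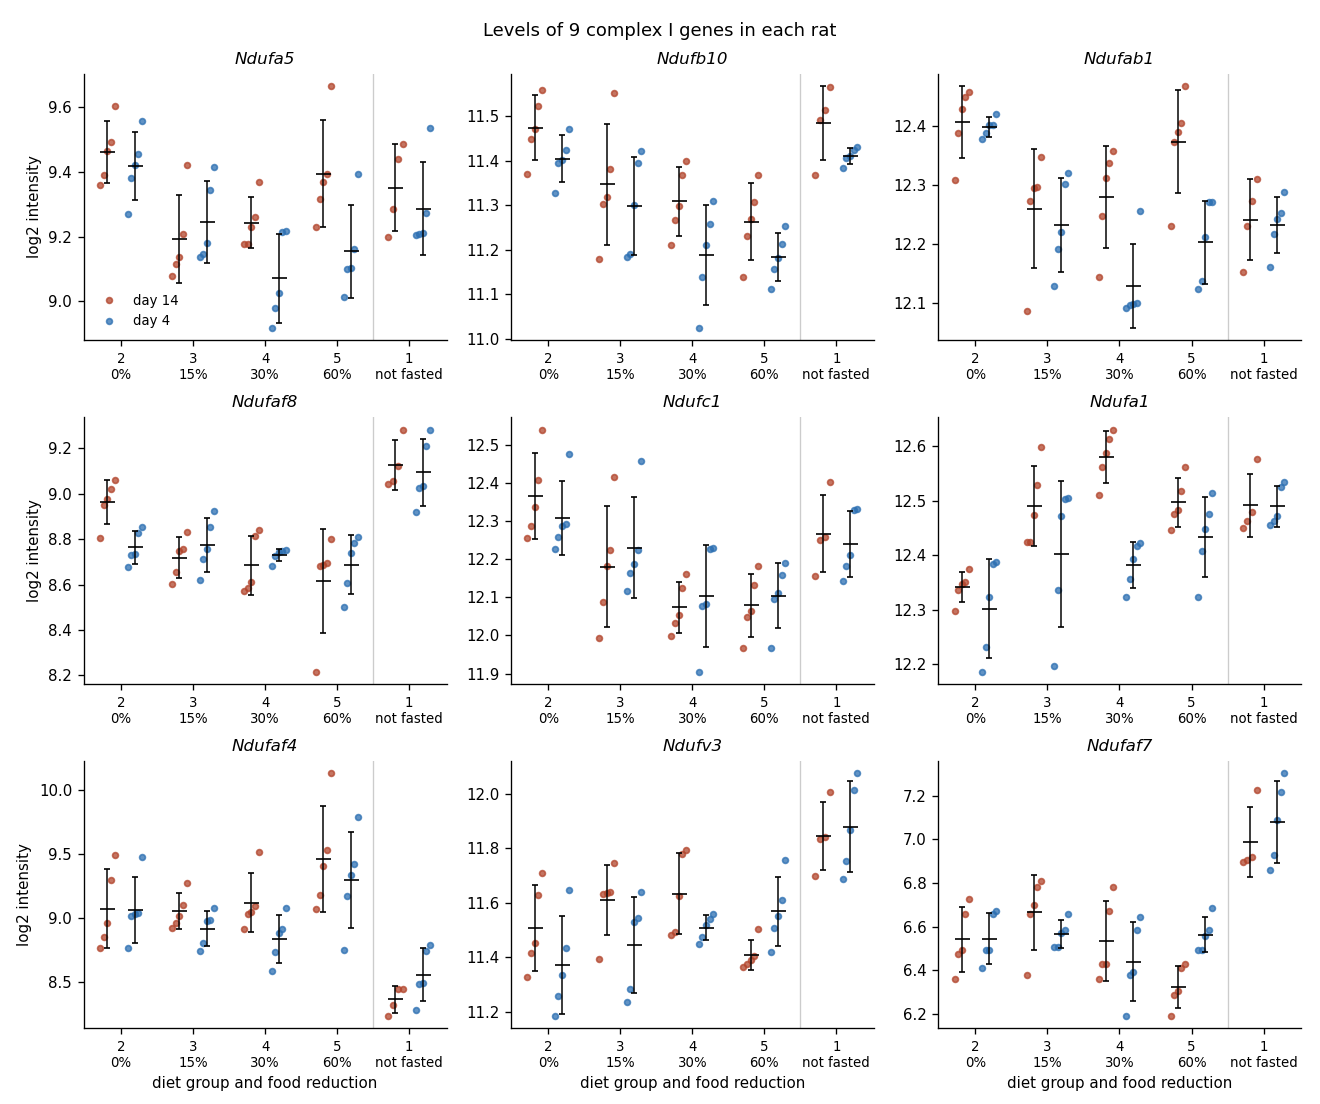
Log2 intensity of 9 complex I genes in each rat, by diet group with its food reduction along the x axis, group 1 (not fasted) at the right; points are rats, black bars the mean ± SD (n = 5, 4 in group 1 on day 14), and each panel has its own y axis. Ndufaf4 averages 9.07 in group 2 on day 14, against 8.37 in group 1, while Ndufaf7 averages 6.54 in group 2, against 6.99 in group 1.

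None of the 4 complex II genes was called in any comparison of a restricted group with group 2 or of group 2 with group 1. In these comparisons singly, 0.141% to 10.9% of all genes were called lower and 0.113% to 11.5% higher. The lack of calls among 4 genes is therefore not read as particular to complex II. Sdha, the flavoprotein, read 11.79, 11.84, 11.48, 11.70 and 11.78 in group 5 on day 14, against 11.65, 11.68, 11.75, 11.70 and 11.42 in group 2, a difference of 0.08 (95% interval -0.11 to 0.27). Sdhb, the iron-sulphur subunit, differed by 0.09 (95% interval -0.06 to 0.25), and the membrane anchors Sdhc and Sdhd by -0.05 (95% interval -0.19 to 0.09) and 0.10 (95% interval -0.05 to 0.26). Over the 6 comparisons with group 2, Sdhc ran from -0.16 to -0.04 and Sdha from -0.16 to 0.12.

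In complex IV 1 of 17 genes, Cox7c, was called in a comparison of a restricted group with group 2. In these comparisons singly, 0.141% to 10.9% of all genes were called lower and 0.113% to 8.88% higher. This count is therefore not read as particular to complex IV. The widely used isoform Cox4i1 differed from group 2 by 0.07 (95% interval -0.02 to 0.17) on day 4 and 0.13 (95% interval 0.01 to 0.26) on day 14 in group 5, and Cox7b by 0.13 (95% interval -0.01 to 0.27) and 0.15 (95% interval 0.00 to 0.30). Cox7a1, a heart and muscle isoform with a low signal (mean log2 intensity 6.02), differed by 0.03 (95% interval -0.19 to 0.24) and -0.12 (95% interval -0.34 to 0.11). Ndufa4l2, the low-signal relative of Ndufa4, differed by -0.14 (95% interval -0.28 to 0.00) and -0.05 (95% interval -0.30 to 0.20).

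**Figure D4:**
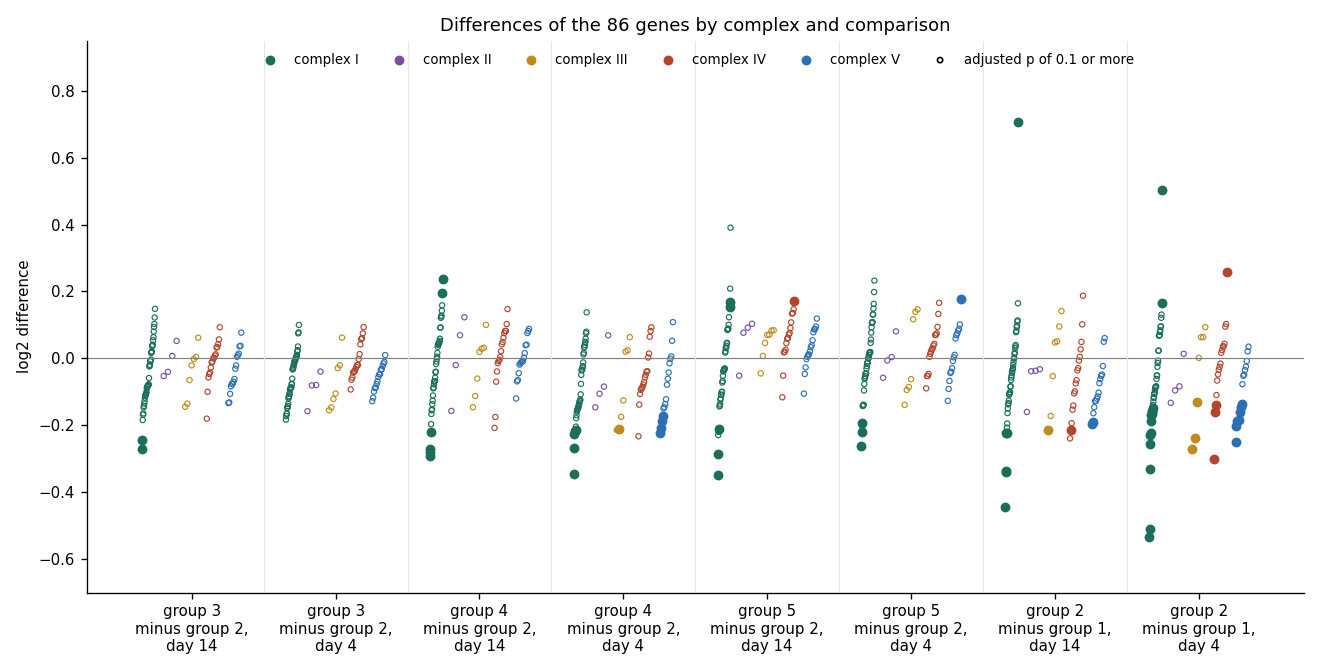
Log2 difference of each of the 86 genes (y axis) in the 8 comparisons with or of group 2 (x axis), with complexes side by side in colour; filled points are called at an adjusted p under 0.1, open points are not. All differences from group 2 in the restricted groups lie between -0.35 and 0.39, and the widest points are Ndufaf7, Ndufv3 and Ndufaf4 in group 2 against group 1.

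The overnight fast gave the clearest differences on day 4. Group 2 is also the reference for the restricted groups. Fasting and diet calls of a gene on the same day therefore share rats and are not separate evidence. In ad libitum rats on day 4, 25 members were called lower and 3 higher in fasted group 2 relative to unfasted group 1. The 25 made up 29.1% of the members, where 9.76% of all genes were called lower and 11.5% higher. Among the genes with a mean log2 intensity of 10 or more 18.1% were called lower, and of the 67 members of that brightness 32.8%. By complex, the lower calls were 12 of 42 in I, 0 of 4 in II, 3 of 7 in III, 3 of 17 in IV and 7 of 16 in V. The complex V median of each rat, set against the group 2 mean, was 0.01, -0.02, 0.01, -0.01 and 0.03 in group 2, against 0.11, 0.10, 0.09, 0.07 and 0.09 in group 1, without overlap, and that of complex I was 0.01, -0.01, -0.01, -0.02 and 0.01 in group 2, against 0.09, 0.06, 0.10, 0.06 and 0.07 in group 1, also without overlap. Leaving out 1 rat gave 18 to 26 called members, the lowest without group 1 replicate 1. On day 14 the comparison called 9 members lower and 1 higher, where 7.26% of all genes were called lower and 5.92% higher. Without group 1 replicate 1 or 3 the 10 became 4, and without group 2 replicate 1 or 5 they became 5. The 2 days used separate rats, and all 28 members called on day 4 had the same sign on day 14, as did 93.6% of all genes called on day 4. Of the 10 members called on day 14, 10 were called in the same direction on day 4, as were 65.5% of all genes called on day 14.

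Ndufaf7, a methyltransferase that acts in complex I assembly, had the largest lower difference. It read 6.67, 6.66, 6.49, 6.49 and 6.41 in group 2 on day 4, against 7.30, 6.86, 7.09, 6.93 and 7.22 in group 1. On day 14 it read 6.73, 6.48, 6.66, 6.36 and 6.49 in group 2, against 7.23, 6.91, 6.89 and 6.92 in group 1. The fasted and unfasted rats did not overlap on either day, and the differences were -0.54 ± 0.09 (SE, adjusted p = 0.00282) and -0.45 ± 0.10 (SE, adjusted p = 0.0190). Ndufv3, an accessory subunit of the NADH-oxidising module, read 11.65, 11.26, 11.18, 11.33 and 11.43 in group 2 on day 4, against 11.87, 12.08, 11.75, 11.69 and 12.02 in group 1, and 11.45, 11.41, 11.71, 11.33 and 11.63 in group 2 on day 14, against 12.01, 11.84, 11.83 and 11.70 in group 1. Its differences were -0.51 ± 0.10 (SE, adjusted p = 0.00584) and -0.34 ± 0.09 (SE, adjusted p = 0.0502), with overlap on day 14 through 1 group 1 rat at 11.70. These values are from the brighter of 2 Ndufv3 probe sets. The dimmer one differed by 0.34 ± 0.13 (SE, adjusted p = 0.120) on day 4 and 0.07 ± 0.11 (SE, adjusted p = 0.783) on day 14, so the probe sets disagreed in sign. With the mean of both in place of the brighter one, Ndufv3 differed by -0.08 (adjusted p = 0.441) and -0.14 (adjusted p = 0.327) and was not called on either day.

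Ndufaf4, an assembly factor, went the other way. It read 8.77, 9.48, 9.03, 9.04 and 9.01 in group 2 on day 4, against 8.79, 8.28, 8.74, 8.49 and 8.50 in group 1, and 8.96, 8.85, 9.30, 8.76 and 9.50 in group 2 on day 14, against 8.33, 8.45, 8.45 and 8.24 in group 1. The groups overlapped on day 4 and were separate on day 14, with differences of 0.50 ± 0.13 (SE, adjusted p = 0.0223) and 0.71 ± 0.14 (SE, adjusted p = 0.0116). Ndufaf4 also varied most within groups, and its difference of 0.39 (95% interval -0.03 to 0.82) between groups 5 and 2 on day 14, the largest of any member in a comparison with group 2, was not called. Of the other assembly factors, Ndufaf8 was lower in group 2 on day 4, differing by -0.33 ± 0.07 (SE, adjusted p = 0.0118) and Ndufaf5 on both days, differing by -0.23 ± 0.05 (SE, adjusted p = 0.0107) and -0.22 ± 0.07 (SE, adjusted p = 0.0838). Ndufaf3 differed by -0.12 (95% interval -0.25 to 0.02) on day 4 and was not called.

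After Ndufv3, the subunits with the largest lower differences on day 4 were Cox7b, Uqcrq, Ndufa12 and Atp5f1e. Uqcrq, an accessory subunit of complex III, read 12.87, 12.87, 12.85, 12.86 and 12.86 in group 2 on day 4, against 13.15, 13.17, 13.15, 13.09 and 13.10 in group 1, and was lower, differing by -0.27 ± 0.04 (SE, adjusted p = 0.00218). On day 14 it was lower, differing by -0.21 ± 0.06 (SE, adjusted p = 0.0561). Cox7b of complex IV read 12.76, 12.65, 12.89, 12.78 and 12.75 in group 2, against 13.01, 13.12, 13.10, 13.03 and 13.07 in group 1, and was lower, differing by -0.30 ± 0.06 (SE, adjusted p = 0.00444) on day 4 and -0.21 ± 0.07 (SE, adjusted p = 0.0705) on day 14. Ndufa12 of complex I was lower, differing by -0.26 ± 0.06 (SE, adjusted p = 0.0180) and -0.34 ± 0.08 (SE, adjusted p = 0.0269). For each of these genes the fasted rats lay below all unfasted rats on both days, with 4 unfasted rats on day 14. These genes were picked for the size of their differences, and the share of all genes that separate this way is not given here. In complex V, Atp5f1e read 12.07, 12.00, 12.04, 12.00 and 11.97 in group 2 on day 4, against 12.25, 12.31, 12.29, 12.26 and 12.23 in group 1, and was lower, differing by -0.25 ± 0.05 (SE, adjusted p = 0.00436). The peripheral stalk gene Atp5po, the membrane domain genes Atp5me and Atp5mg and the catalytic domain gene Atp5f1a were lower on day 4, differing by -0.20, -0.19, -0.18 and -0.16. Ndufa11 of complex I was called lower on both days, differing by -0.16 on day 4 and -0.22 on day 14.

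Of the core subunits, Ndufs8 and Atp5f1a were called lower on day 4 and several others were not called. Ndufs1, Ndufv1 and Ndufv2 differed on day 4 by -0.08 (95% interval -0.22 to 0.05), -0.05 (95% interval -0.17 to 0.06) and -0.10 (95% interval -0.20 to 0.00). Uqcrc1 and Uqcrc2 differed by 0.06 (95% interval -0.06 to 0.19) and 0.06 (95% interval -0.07 to 0.20), and Atp5f1b, the beta subunit of the ATP synthase, by -0.05 (95% interval -0.16 to 0.05). None of these was called on either day. The members called higher in group 2 on day 4, besides Ndufaf4, were Ndufab1 and Cox7a2l. Ndufab1 was higher by 0.16 ± 0.05 (SE, adjusted p = 0.0329). Cox7a2l, which helps complexes III and IV to associate, read 10.71, 10.84, 10.69, 10.73 and 10.86 in group 2, against 10.65, 10.46, 10.40, 10.53 and 10.50 in group 1, and was higher by 0.26 ± 0.06 (SE, adjusted p = 0.0167).

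Of the 22 members with a window that were called lower by the fast on day 4, 5 held the NRF1 core, against 3 of the 56 other members. The YY1 motif stood in 2 of the 22, against 9 of the 56. The split was made after the calls were known and was not tested, and a match says nothing of whether a factor binds in these livers.

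Markers of other cell types were read beside the fasting comparison. The 7 stellate cell and fibroblast markers had a summed linear intensity of 1980 to 3417 in group 2 on day 4, against 3422 to 5636 in group 1, and of 2402 to 4195 on day 14 in group 2, against 4272 to 5070 in group 1, with 3 of 7 called lower on each day. Of all genes, 9.76% were called lower on day 4 and 7.26% on day 14. The part of these markers in the member differences was not tested. The sum over the 8 hepatocyte markers was 138160 to 141270 in group 2 on day 4, against 131280 to 137180 in group 1. On day 14 it was 138260 to 144850 in group 2, against 131940 to 136640 in group 1. The part of this difference in the member differences was not tested. On day 14, 2 of 3 erythroid markers measured of 7 listed were called lower in groups 4 and 5 relative to group 2. Of all genes, 6.24% were called lower in group 4 and 10.9% in group 5. The erythroid sum was 3720 to 9570 in group 4 and 1224 to 3476 in group 5, against 7365 to 10641 in group 2. The part of these markers in the day 14 member differences was not tested. Stellate cell markers were also lower for 2 of 7 in group 5 on day 14, with a sum of 1414 to 2571 in group 5, against 2402 to 4195 in group 2. The sums of Kupffer cell, T and NK cell, bile duct and endothelial markers overlapped between the groups in each of these comparisons.

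Relative to day 4, day 14 was higher for 9 members and lower for none in group 4, where 3.64% of all genes were called higher and 1.84% lower. The group 4 rats of day 4 are those that gave the lower calls against group 2. These higher calls are therefore not separate evidence, and the rats of the other groups are likewise shared between comparisons. Of the 86 differences 78 were above 0 and the median was 0.12, against 0.00 for all genes. The members were brighter than most genes, with a median log2 intensity of 11.6, against 7.42 for all genes. The share among genes of their brightness is not given here, so this rise is not shown to be particular to the members. Group 3 was higher on day 14 for 7 of 86 members and lower for none, where 8.93% of all genes were called higher and 3.85% lower. The group 3 count of higher members was thus near the share of all genes. In group 5, 1 member was higher and 1 lower, where 3.9% of all genes were called higher and 2.81% lower. The ad libitum groups gave no member, with 0.00703% of all genes called higher and 0% lower in group 2, and 0% and 0% in group 1 (limma). At an unadjusted p under 0.05 there were 6 and 5 members, given without the share of all genes. The fit of all 10 groups also called 0 members in groups 2 and 1, and it called 33 in group 4, 15 in group 3 and 18 in group 5. Leaving out 1 rat gave 1 to 7 calls in group 4, with 1 without day 4 replicate 4 or day 14 replicate 4. In group 3 it gave 1 to 8, with 1 without day 14 replicate 1 or 2, and in group 5 it gave 0 to 7, with 7 without day 14 replicate 3. With arrays centred on the median, group 4 had 11 calls and group 3 had 12. After a second quantile normalisation group 4 had 6 and group 3 had 1, and in a fit of all probe sets they had 8 and 4.

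Of the core subunits not called in the fasting comparison, Ndufs1, Ndufv1, Ndufv2 and Uqcrc1 were called between the days in group 3 or group 4, while Uqcrc2 and Atp5f1b were called in no group. Uqcrc1, a core protein of complex III, read 12.04, 11.95, 11.91, 12.10 and 11.95 in group 4 on day 14, against 11.70, 11.64, 11.84, 11.59 and 11.65 on day 4, and 11.97, 11.92, 12.03, 11.88 and 11.89 in group 3 on day 14, against 11.69, 11.85, 11.69, 11.77 and 11.70 on day 4. It was higher by 0.31 ± 0.07 (SE, adjusted p = 0.0332) in group 4 and 0.19 ± 0.06 (SE, adjusted p = 0.0603) in group 3, with no overlap of days in either. Group 5 differed by 0.24 (95% interval 0.06 to 0.41) and group 2 by 0.06 (95% interval -0.08 to 0.20), neither called. Ndufv1, the NADH-binding subunit, was higher by 0.22 ± 0.06 (SE, adjusted p = 0.0641) in group 4 and 0.20 ± 0.06 (SE, adjusted p = 0.0561) in group 3. Sdha was higher in group 3 by 0.22 ± 0.06 (SE, adjusted p = 0.0516), with 11.72, 11.74, 11.70, 11.63 and 11.69 on day 14, against 11.42, 11.62, 11.40, 11.55 and 11.41 on day 4. Sdhb was higher in group 4 by 0.21 ± 0.06 (SE, adjusted p = 0.0791). The remaining calls were Ndufv2, Ndufs3, Ndufb9, Ndufb4, Ndufa1 and Atp5po in group 4, Ndufa2, Ndufa8, Ndufs1 and Atp5if1 in group 3, and Ndufc2 in group 5, each higher by 0.15 to 0.25. Ndufaf7 was lower in group 5, with 6.19, 6.41, 6.30, 6.29 and 6.43 on day 14, against 6.58, 6.49, 6.49, 6.69 and 6.55 on day 4, a difference of -0.24 ± 0.07 (SE, adjusted p = 0.0779).

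Whether a diet effect itself changed between day 4 and day 14 was tested by an interaction term. No member was called for group 3, 4 or 5 against group 2, or for group 2 against group 1, where 0.591%, 0.134%, 2.04% and 0% of all genes were called in either direction (limma). At an unadjusted p under 0.05 there were 2, 10, 5 and 1 members in that order. The share of all genes at that limit is not given here, so these counts are not read as a result. The fit of all 10 groups also called 0. The members with the lowest p were Ndufaf8 for group 3, at -0.26 ± 0.09 (SE, adjusted p = 0.297), Uqcrc1 for group 4, at 0.25 ± 0.09 (SE, adjusted p = 0.315), and Ndufv2 for group 5, at 0.18 ± 0.08 (SE, adjusted p = 0.288). The differences in which genes were called on day 4 and on day 14 are therefore not shown to be differences between the days.

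The members moved together from rat to rat. After the group means were removed, the median Pearson correlation over the 49 arrays was 0.41 for pairs within a complex and 0.44 for pairs across complexes (66 subunit genes with a mean log2 intensity of 10 or more), against 0.04 for pairs of the 1961 genes of that brightness. Within complexes the medians ran from 0.36 for I to 0.56 for V. The points share the array and its normalisation, so this is a description of the arrays.

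Single genes of related pathways moved by larger steps than any member. Among 22 measured of 23 listed regulators of mitochondrial gene transcription and DNA copying, 5 were called higher and 2 lower in group 5 on day 14, where 8.88% of all genes were called higher and 10.9% lower, with a list median of 0.08, against 0.00 for all genes. Ppargc1a, the coactivator PGC-1alpha that raises respiratory gene transcription and gluconeogenesis, was higher on day 14 in group 4 by 0.84 ± 0.26 (SE, adjusted p = 0.0692) and in group 5 by 1.83 ± 0.31 (SE, adjusted p = 0.00208). Its relative Ppargc1b was higher in group 5 by 0.94 ± 0.22 (SE, adjusted p = 0.0124), and Esrrg, an oestrogen-related receptor, in group 3 by 0.83 ± 0.13 (SE, adjusted p = 0.00305). Polg, the mitochondrial DNA polymerase, was lower on day 14, differing by -0.77 ± 0.09 (SE, adjusted p = 0.000351) in group 4 and -0.90 ± 0.10 (SE, adjusted p = 0.000164) in group 5. In group 2 relative to group 1, 11 of the 22 were higher and 2 lower on day 4, and 7 higher and 1 lower on day 14, where 11.5% of all genes were called higher and 9.76% lower on day 4, and 5.92% and 7.26% on day 14.

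Of 6 genes measured of 8 listed for electron carriers and cytochrome c1, 3 were lower and 0 higher in group 5 on day 14 and 4 were lower in group 4 on day 4, where 10.9% and 2.38% of all genes were called lower. Etfdh, which passes electrons from fatty acid oxidation to ubiquinone, was lower in group 5, differing by -0.59 ± 0.08 (SE, adjusted p = 0.00214) on day 4 and -0.82 ± 0.06 (SE, adjusted p = 1.08e-05) on day 14, and Gpd2, the mitochondrial glycerol phosphate dehydrogenase, by -0.70 ± 0.15 (SE, adjusted p = 0.0282) and -0.78 ± 0.10 (SE, adjusted p = 0.000337). Among 12 measured of 13 listed genes of coenzyme Q synthesis and binding 2 were higher and 3 lower in group 5 on day 14, where 8.88% of all genes were called higher and 10.9% lower. Coq10b, a coenzyme Q binding protein, was higher in group 5 by 1.40 ± 0.18 (SE, adjusted p = 0.00224) on day 4 and 1.80 ± 0.23 (SE, adjusted p = 0.000337) on day 14, while Coq8a was lower, differing by -1.17 ± 0.13 (SE, adjusted p = 0.000157) on day 14.

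Of 41 measured of 45 listed further assembly factors, 1 was higher and 2 lower in group 5 on day 14 and 6 were higher and 5 lower in group 2 against group 1 on day 4. Sdhaf3, an assembly factor of complex II in yeast and flies, was higher in group 5 by 0.34 ± 0.08 (SE, adjusted p = 0.0483) on day 4 and 0.58 ± 0.10 (SE, adjusted p = 0.00208) on day 14, while none of the 4 Sdh genes was called against group 2. Of 12 measured of 15 listed citric acid cycle genes, 1 was higher and 1 lower in group 5 on day 14. Idh2, the NADP-linked mitochondrial isocitrate dehydrogenase, was higher in group 5 by 0.64 ± 0.07 (SE, adjusted p = 0.000499) on day 4 and 0.62 ± 0.13 (SE, adjusted p = 0.00744) on day 14, and Suclg1, a succinyl-CoA ligase subunit, was lower, differing by -0.30 ± 0.07 (SE, adjusted p = 0.0386) on day 4. Of 12 measured of 14 listed nucleotide, phosphate and uncoupling carriers 1 was lower in group 5 on day 14, Ucp2, by -0.50 ± 0.10 (SE, adjusted p = 0.00710). Of 9 measured mitochondrial antioxidant genes 2 were lower in group 5 on day 4, Sod2 by -0.25 ± 0.07 (SE, adjusted p = 0.0884) and Gpx4 by -0.18 ± 0.05 (SE, adjusted p = 0.0835), and 1 on day 14, Prdx5 by -0.23 ± 0.07 (SE, adjusted p = 0.0549). Of all genes, 3.58% were called lower and 3.56% higher in group 5 on day 4, 10.9% lower and 8.88% higher on day 14, and 9.76% lower and 11.5% higher in group 2 against group 1 on day 4.

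**Figure D5:**
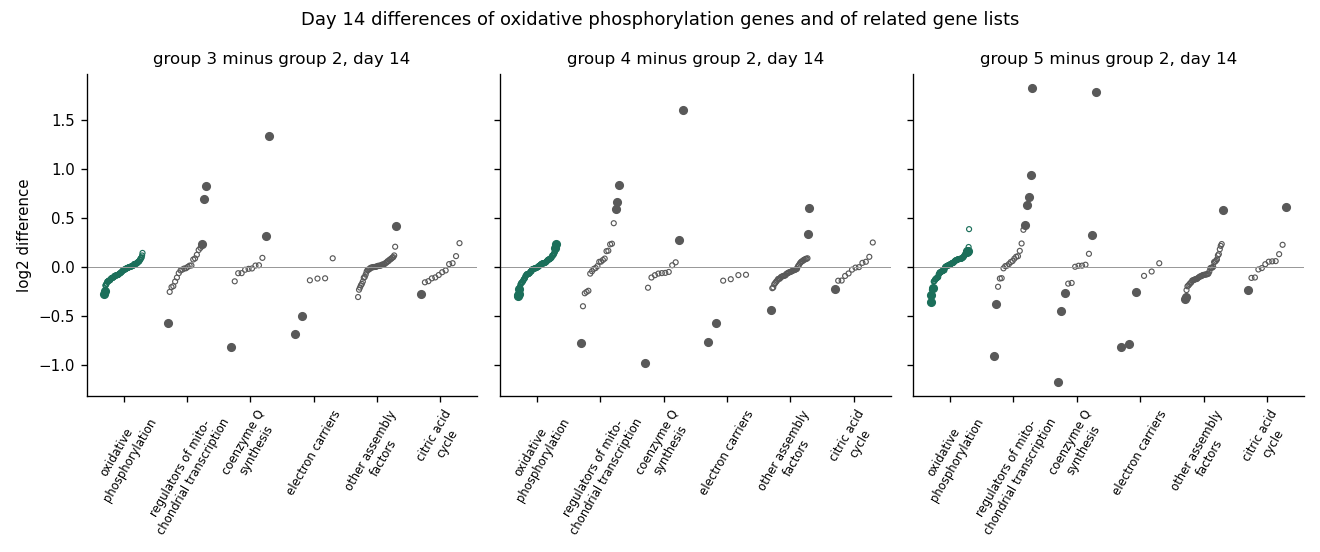
Log2 differences on day 14 of group 3, 4 and 5 rats from group 2 (1 panel each) for the 86 members (green) and the genes of 5 related lists (grey), sorted within each list; filled points are called at an adjusted p under 0.1. In group 5 the members lie between -0.35 and 0.39, while Ppargc1a reaches 1.83, Coq10b 1.80 and Coq8a -1.17.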

How the data were processed

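Liver RNA of 49 rats was measured on Affymetrix rat arrays, 1 array per rat. The deposited intensities were summarised per probe set by RMA, and the submitters' processing notes also name Affymetrix Expression Console, affy 1.38.1 and R 3.0.1. RMA makes the distributions of all arrays alike, so a shift shared by all genes is not visible. The authors' deposited values are linear intensities in whole numbers, and log2 of them was taken here. Of 31042 probe sets, 20826 carry 1 gene symbol, 436 several and 9780 none in the platform annotation. The brightest probe set per symbol was kept, which gave 14217 genes. Members and gene lists were chosen with earlier results of these data known.

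Each pair of groups was fitted by itself in limma 3.58.1 (R 4.3.3) with moderated variances, the p-values were adjusted by the Benjamini-Hochberg method over all 14217 genes, with 0.1 as the limit for a call. The study used a log-normal mixture model at the same error rate, which was not run here. Interactions were fitted over the 4 groups concerned. The genes named were the called members with the largest changes in each comparison, the 4 Sdh genes, the members with the highest and lowest median change of each complex over the 6 comparisons with group 2, members called the same way in 3 or more of these, the isoform pairs, and up to 4 called genes of each other list. Other members are named to complete a count or as uncalled partners and were chosen after their values were seen. Values are given with the number of rats, since the number of arrays limits the precision. The steps were tested on simulated data. Other settings, and fits without each rat in turn, are in the closing section.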

Additional observations from a re-analysis of the deposited data

Results flagged for a closer look

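Of 165 groups of values examined, 7 had 1 rat far from the others of its group, where chance alone gives about 1 in 20. In group 4 on day 4, 1 rat had the highest median deviation over all members at -0.034, with the next at -0.087, and 1 rat had the lowest complex IV median at -0.11, with the next at -0.03. In the same group 1 rat read 12.26 for Ndufab1, where the next read 12.10. Ndufaf8 had 1 group 5 rat of day 14 at 8.21, below the next at 8.68. Ndufaf7 had 1 group 1 rat of day 14 at 7.23, above the next at 6.92. Atp5if1 had 1 group 3 rat of day 4 at 8.94, above the next at 8.83, and Ndufc2 had 1 group 5 rat of day 4 at 10.93, above the next at 10.80.

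Probe sets that carry several symbols were left out of the members. Of the 7 with a symbol that fits the naming rule of the members, 3 gave a called difference. The probe set shared by LOC100361008 and Cox5a differed by -0.28 in group 4 against group 2 on day 4. The probe set shared by Atp5mc1l1 and Atp5mc1 differed by -0.35, and that shared by Ndufs5-ps2 and Ndufs5 by -0.18, in group 2 against group 1 on day 4. Which of the paired genes gave the signal cannot be told apart.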

How the results depend on the processing

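No called change of a named member turned its direction under any setting tried, although the dimmer Ndufv3 probe set had the opposite sign in group 2 against group 1. The settings moved the counts of called members by over 1.5 times as follows, with the main count first. For group 5 against group 2 on day 4, 4 became 1 at an adjusted p under 0.05, 11 in a fit of all 10 groups and 7 with an intensity trend, and fits without 1 rat gave 1 to 4. For group 4 on day 4, 10 became 3, 22 and 17 under the same settings, and 3 to 8 without 1 rat. For group 5 on day 14, 6 became 2 at 0.05, 18 in the fit of all groups and 3 over all probe sets, and 3 to 6 without 1 rat. For group 4 on day 14, 6 became 3 at 0.05, 18 in the fit of all groups, 13 after a second quantile normalisation and 12 with the trend, and 2 to 7 without 1 rat. For group 3 on day 14, 2 became 0, 6, 4 and 4 under those settings and 1 with arrays centred on the median, and 0 to 3 without 1 rat. For group 2 against group 1, 28 on day 4 became 18 at 0.05 and 18 to 26 without 1 rat, and 10 on day 14 became 4 at 0.05, 23 in the fit of all groups and 4 to 9 without 1 rat. Between the days, 7 in group 3 became 1 at 0.05, 15 in the fit of all groups, 4 over all probe sets, 1 after quantile normalisation, 12 with centred arrays and 1 to 8 without 1 rat. In group 4, 9 became 1 at 0.05, 33 in the fit of all groups, 16 without dim genes, 18 with the trend and 1 to 7 without 1 rat. In group 5, 2 became 0 at 0.05 or with centred arrays, 18 in the fit of all groups, 1 over all probe sets, after quantile normalisation or with robust variances, 5 with array weights and 0 to 7 without 1 rat. The fit of all groups shares its estimate of the spread over 49 arrays; the cause of the other shifts was not tested. Over all 84 member calls, 69 of 756 values under other settings lost the call, as did 346 of 830 values without 1 rat. With the mean of all probe sets of a gene, Ndufv3 in group 2 against group 1 fell short of a call on both days at -0.08 and -0.14, and between the days Atp5po in group 4 became 0.07, Atp5if1 in group 3 0.10 and Ndufaf7 in group 5 -0.15. Of 160 complex medians under other settings, 12 moved by more than the spread between rats, and the complex IV median in group 2 against group 1 on day 4, -0.02, became 0.02 after quantile normalisation and 0.01 with centred arrays. No paired analysis was possible because the replicate numbers follow accession order and the labels tie no rats across groups.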
